A study of Mus musculus with 13 samples.

Results

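A small set of CTCF-bound regions in the embryonic mouse limb was recorded as a single enriched interval with several separate summits, each summit being the position of a local maximum of signal. These regions were chosen on the CTCF peak list of wild-type distal forelimb. An autosomal interval was taken when it was listed with 2 or more summits and overlapped a CTCF peak of wild-type proximal forelimb. The rule found 981 members among 66758 autosomal distal intervals, of which 55485 overlapped a proximal peak. They are set against the 54504 distal intervals that had 1 summit and also overlapped a proximal peak. Another 111 several-summit intervals had no proximal peak and were left out. Because the members were selected on their number of distal summits and on the proximal overlap, the values of the distal list and the presence of a proximal peak describe the choice and support nothing.

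CTCF is a zinc-finger protein that recognises a long, oriented DNA motif, and it marks many boundaries between chromatin domains, among them the one at the HoxD cluster whose genes pattern the limb. Cohesin, of which RAD21 and SMC1 are subunits, extrudes chromatin loops and is held at CTCF sites that point towards the loop. Clusters of neighbouring CTCF sites are known from several domain boundaries, so the number, spacing and direction of sites within one bound region are of interest.

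The series covers limb tissue of embryos at E12.5, with 1 library per group. Homozygous HoxD mutants on the B6CBAF1 background gave CTCF lists for 4 alleles. These are delHoxd(8-13)d11lac, delHoxd(1-13)d9lac and delHoxd(attP-rel5)d9lac, each from whole forelimbs and hindlimbs, and delHoxd(8-13)rXII, from whole forelimbs of 4 pooled embryos by ChIPmentation, a ChIP in which adapters are inserted by a transposase while the chromatin is still on the beads. The alleles are called del(8-13)d11lac, del(1-13)d9lac, del(attP-Rel5)d9lac and del(8-13)rXII below. The delHoxd(8-13)rXII allele also gave a RAD21 list from whole forelimbs and hindlimbs, sequenced in 2 runs. The wild-type lists on this background are one of CTCF and one of RAD21, both of whole forelimbs and hindlimbs and called whole-limb here. The distal and proximal forelimb lists come from wild-type embryos of the CD1 strain: CTCF in both tissues, and in distal forelimb also RAD21 and SMC1. H3K27ac samples of the same CD1 tissues were not analysed here. With 1 library per group there is no test between groups, and genotype, strain, tissue, assay and library cannot be told apart. The ranges given after shares are 95% intervals by Wilson's method, for counting error alone. Read depth is unknown from the lists.

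The sequences that carry the description are pairs of CTCF motifs under neighbouring summits of a member. A motif matrix of 19 positions, learnt from these data, had the consensus NGCCACNAGGGGGCGCNNN, searched on both strands within 50 bp of a summit. A match was kept above 6.80 bits, a score that 5% of control windows passed. The 4 members below were taken from the 10 with the strongest second summits, after their values were seen, because they show motifs of the same direction and of opposite directions. Capitals mark the motif, with 10 flanking bases on each side, each line reads 5′ to 3′ on the motif's own strand, and coordinates are mm10.
Kctd17, left summit, chr15:78447798-78447836, plus strand: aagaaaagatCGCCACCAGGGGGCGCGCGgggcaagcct
Kctd17, right summit, chr15:78448398-78448436, plus strand: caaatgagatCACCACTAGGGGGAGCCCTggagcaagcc
Hook2, left summit, chr8:84989975-84990013, minus strand: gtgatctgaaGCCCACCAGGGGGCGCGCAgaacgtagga
Hook2, right summit, chr8:84990455-84990493, minus strand: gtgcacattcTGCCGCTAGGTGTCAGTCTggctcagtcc
Pigo, left summit, chr4:43025484-43025522, minus strand: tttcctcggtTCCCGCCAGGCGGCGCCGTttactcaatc
Pigo, right summit, chr4:43025859-43025897, minus strand: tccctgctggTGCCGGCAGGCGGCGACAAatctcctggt
Ntmt1, left summit, chr2:30794652-30794690, minus strand: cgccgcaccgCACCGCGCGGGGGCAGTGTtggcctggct
Ntmt1, right summit, chr2:30794977-30795015, plus strand: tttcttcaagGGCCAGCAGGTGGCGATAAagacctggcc

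Motif pairs this far apart cannot be shown in a short stretch, and pairs within 200 bp were rare: 2 of 420. Both lie on chromosome 4 and are printed here with the other strand's letters where a motif is on the minus strand. The sequences near Rragc and Fancg have both motifs in one direction. Both members were weak. Their strongest and second-strongest summits had a −log10 q of 10.8 and 6.71 near Rragc, and of 3.77 and 2.30 near Fancg.
Rragc, chr4:124083111-124083315, plus strand, both motifs on the minus strand: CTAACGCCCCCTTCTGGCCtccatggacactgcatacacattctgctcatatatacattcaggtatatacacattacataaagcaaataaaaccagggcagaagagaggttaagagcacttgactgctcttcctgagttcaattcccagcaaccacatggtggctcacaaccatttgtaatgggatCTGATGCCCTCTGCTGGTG
Fancg, chr4:43011786-43011974, plus strand, both motifs on the plus strand: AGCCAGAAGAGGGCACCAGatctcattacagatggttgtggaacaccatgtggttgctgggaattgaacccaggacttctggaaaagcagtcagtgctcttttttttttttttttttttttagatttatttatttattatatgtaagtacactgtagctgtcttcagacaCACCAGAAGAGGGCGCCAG

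Of the 14 pairs within 250 bp, the 2 below were chosen after their values were seen. The member near Peg3, an imprinted zinc-finger gene expressed from the paternal copy, is shown because it lies in an intron of that gene. The stretch near Nuf2, which encodes a kinetochore protein, is a tandem array in which 7 non-overlapping motif matches passed the limit, although the member has 3 summits.
Peg3, chr7:6727538-6727773, plus strand, both motifs on the minus strand: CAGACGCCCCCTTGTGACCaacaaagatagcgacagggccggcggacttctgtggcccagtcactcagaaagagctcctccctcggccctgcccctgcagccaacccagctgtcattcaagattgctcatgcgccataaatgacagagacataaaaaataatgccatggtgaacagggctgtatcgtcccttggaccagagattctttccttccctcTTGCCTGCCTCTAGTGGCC
Nuf2, chr1:169517880-169518123, plus strand, both outer motifs on the plus strand: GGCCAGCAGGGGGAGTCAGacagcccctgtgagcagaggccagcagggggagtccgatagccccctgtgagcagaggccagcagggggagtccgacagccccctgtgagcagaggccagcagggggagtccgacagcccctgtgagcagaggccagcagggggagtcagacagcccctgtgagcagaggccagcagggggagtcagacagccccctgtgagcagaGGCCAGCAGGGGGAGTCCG

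Most members held a pair of summits. Of the 981, 924 (94.2%) had 2 summits, 44 had 3, 5 had 4, 4 had 5 and 4 had 6 or more, the highest number being 12. Over all 1071 neighbouring pairs the median distance was 354 bp, with quartiles of 294 and 428 bp and a range of 15 to 1237 bp. Pairs 300 to 400 bp apart made up 40.5%, and 10 pairs (0.934%) were closer than 100 bp. The labels give sonicated fragments of 200 to 500 bp, the same range as most of the spacings, and the share of this in the spacing was not tested. Member intervals had a median width of 743 bp, against 394 bp for 1-summit intervals. At the edge of the rule, the closest summits of members were 15, 42 and 59 bp apart, in intervals of 240, 474 and 337 bp, and the widest 1-summit intervals reached 1100, 1101 and 1198 bp.

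The summits of a member were usually unequal. Strength is the authors' −log10 q of a summit, and the strongest summit of a member had a median of 47.2, against 37.5 for 1-summit intervals. The second-strongest summit had a median of 10.2, and its ratio to the strongest had a median of 0.420 with quartiles of 0.171 and 0.731. When the 55485 intervals were split into 10 equal strength groups, numbered from 1 for the weakest, members made up between 1.37% of group 6 and 2.34% of groups 1 and 9. Members were therefore present at all strengths, with more at both ends than in the middle.

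**Figure D1:**
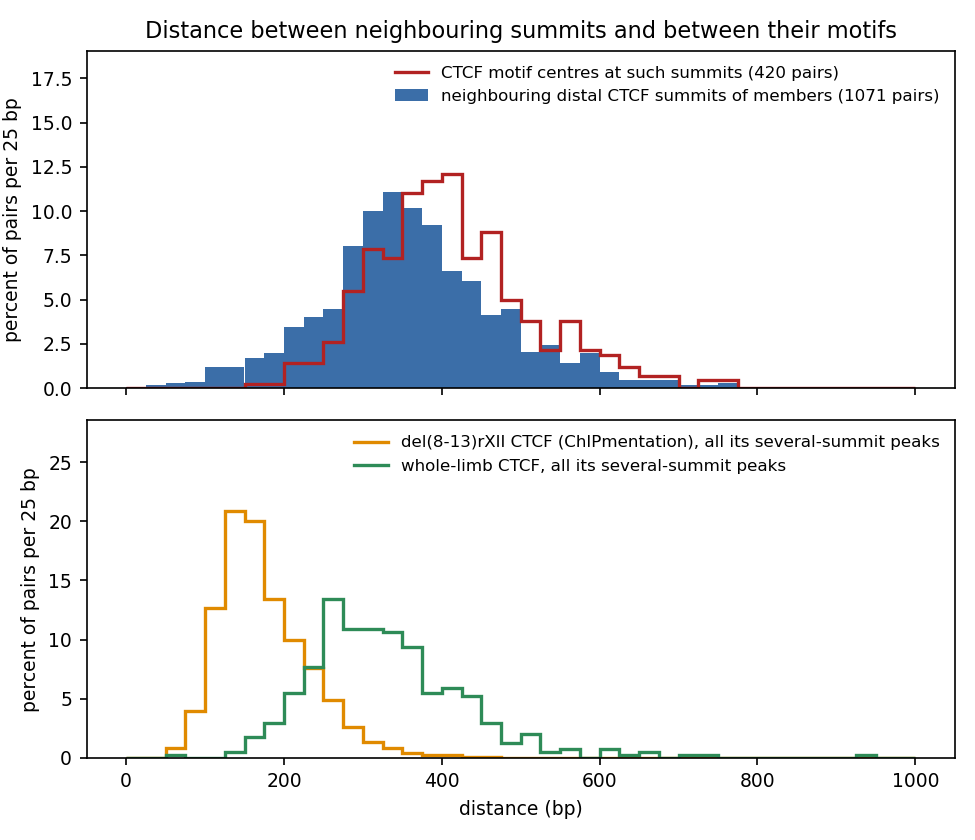
Distances in 25 bp bins, as percent of pairs. The upper panel shows neighbouring distal summits of the members (bars, median 354 bp) and motif centres at such summits (line, median 400 bp); the lower panel shows all several-summit peaks of the del(8-13)rXII list (median 163 bp) and of the whole-limb CTCF list (median 316 bp).

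Motifs were found at 57.7% of member summits (1183 of 2052, 55.5 to 59.8%), against 83.8% of 1-summit intervals. The strongest summits of members had a motif in 69.4% of cases and the others in 46.9%. Windows were also placed 343 bp, a median spacing of several-summit intervals, to each side of all autosomal 1-summit distal intervals, with or without a proximal peak. They held a motif in 4.93% of 131332 cases, near the 5% that the limit was set to pass in control windows. Thus most secondary summits lay over sequence without a match. Those windows were not placed on called summits, so they give the rate away from summits and are no like comparison for secondary summits. A motif match is a description of letters and does not show binding.

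By motif content the members fell into 3 classes. In 421 members (42.9%, 39.9 to 46.0%) 2 or more summits had a motif at distinct positions, in 339 (34.6%) 1 summit had one, and in 221 (22.5%) none had. The 421 were strong, with a median strongest −log10 q of 116, against 39.0 for members with 1 motif and 9.24 for members with none. Their second summits had a median of 29.2, against 6.38 and 4.00 in the other classes. Members with several motifs were also spaced more widely, with a median of 388 bp, against 341 and 312 bp.

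The motif centres of 420 neighbouring pairs lay a median of 400 bp apart, between 170 and 770 bp. Both motifs pointed the same way in 227 pairs (54.0%, 49.3 to 58.8%), 115 on the plus and 112 on the minus strand. They faced each other in 107 pairs (25.5%, 21.5 to 29.9%) and faced away in 86 (20.5%, 16.9 to 24.6%). As background, 2647 pairs of neighbouring 1-summit intervals within 2 kb had the same direction in 56.4%, faced each other in 19.3% (17.8 to 20.8%) and faced away in 24.3%. The share facing each other was thus higher in members, with intervals that did not overlap, while the share in the same direction differed by less than the counting error. Distance was not matched, since the background pairs reach 2 kb. The near-identical copies on chromosome 4 described below, whose motifs face each other, were counted as separate pairs. The 4 arrangements had like median distances of 388 to 428 bp.

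Copied sequence was common among the members. The 31 bp round a summit occurred elsewhere in the genome for 24.7% of member summits, against 12.3% of 1-summit intervals. At least 1 such summit was present in 317 members (32.3%), and in 101 members its 31 bp occurred 100 times or more. These 317 were weaker, with a median strongest −log10 q of 11.1, against 83.2 in the 664 members whose summits were all unique. No motif was found in 46.7% of the 317, against 11% of the 664. Reads were 50 bases long, and the part of copied sequence in the results below was not tested; values for the 664 alone are given where they differ.

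The other CTCF lists often held several summits at the same places. A member's peak had several summits in 48.1% of cases for del(8-13)d11lac (407 of 847 members with a peak, 44.7 to 51.4%), 25.6% for del(1-13)d9lac (184 of 719), 26.7% for del(attP-Rel5)d9lac (201 of 753) and 28.5% for wild-type whole limb (211 of 740). Among 1-summit intervals the shares were 0.863% for del(8-13)d11lac, 0.292% for del(1-13)d9lac, 0.409% for del(attP-Rel5)d9lac and 0.433% for wild-type whole limb. In wild-type proximal forelimb, the share was 54.9% of members (539 of 981), against 1.01% of 1-summit intervals. None of these summit numbers in the other lists was used by the rule.

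Part of this contrast went with width, since members are wide. Among intervals of 700 bp or more with a peak in the list, several summits were found at 62.0% of members and 7.01% of 1-summit intervals for del(8-13)d11lac, and at 30.1% and 10.4% for del(1-13)d9lac. The shares were 31.6% and 11.9% for del(attP-Rel5)d9lac and 70.9% and 10.3% for wild-type proximal forelimb. For wild-type whole limb, they were found at 187 of 545 members and 39 of 311 1-summit intervals. Members thus stood above 1-summit intervals of this width in these 5 lists, by a smaller factor than without the limit on width.

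The order of the lists followed their own tendency to give several summits. Over all autosomal peaks, several summits were listed at 1.22% of peaks for del(8-13)d11lac, 0.722% for del(1-13)d9lac, 0.875% for del(attP-Rel5)d9lac, 0.881% for wild-type whole limb and 1.64% in both wild-type distal and proximal forelimb. Of the mutant lists from whole limbs, del(8-13)d11lac stood above wild type at members, and del(1-13)d9lac and del(attP-Rel5)d9lac had intervals that overlapped that of wild type. The del(8-13)d11lac list is also longer, with 59369 peaks against 42202 in wild-type whole limb. With all CTCF lists cut to 35091 peaks, which also left fewer members, the shares were 57.5% for del(8-13)d11lac and 34.0% for wild-type whole limb. No further test of list length was made.

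The del(8-13)rXII CTCF list stood apart in this measure. It listed several summits at 24.9% of all its peaks, with a median spacing of 163 bp, and the other 6 CTCF lists had medians of 311 to 398 bp. Its peaks had several summits at 48.1% of members (310 of 644) and already at 27.2% of 1-summit intervals. At equal width this excess was not seen: among intervals of 500 to under 700 bp the shares were 15.8% of members and 43.7% of 1-summit intervals, and among those of 700 bp or more they were 56.0% and 55.7%. Members were weaker in both classes, with a median strongest −log10 q of 17.7 against 151, and of 104 against 156. Weighted to the members' strength, the share of 1-summit intervals was 28.4%, and members were higher in all 10 strength groups. The sets were not matched on width and strength together. This library differs from the others in assay and tissue, so its many summits cannot be told apart from its genotype.

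**Figure D2:**
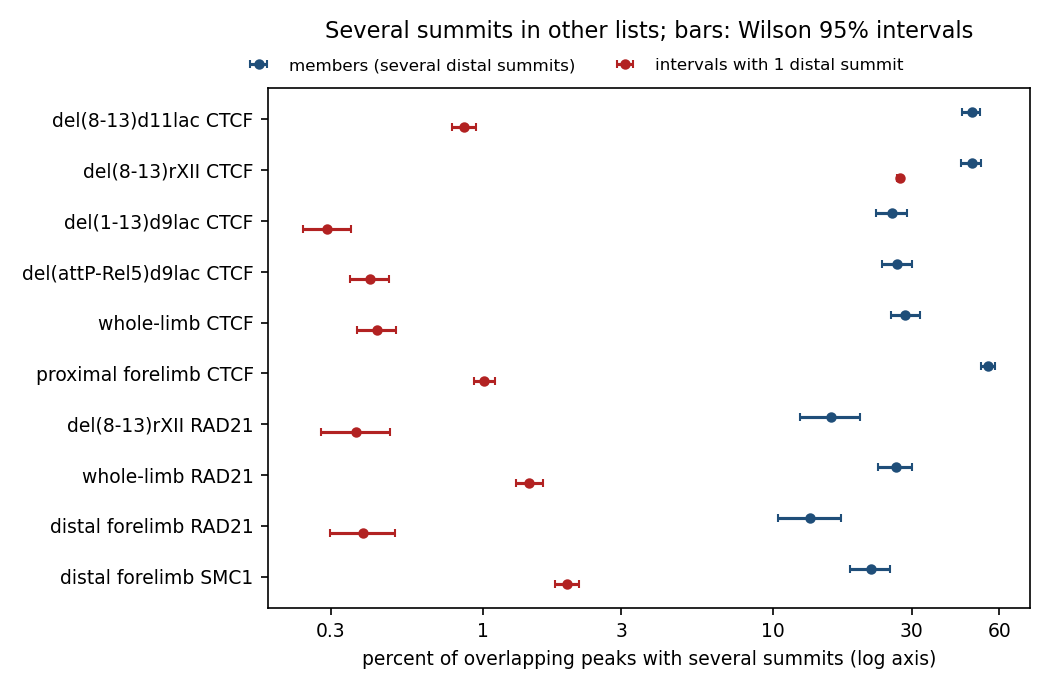
Percent of overlapping peaks that hold several summits, on a log axis, for members and for intervals with 1 distal summit; bars are Wilson 95% intervals. Members stand above 1-summit intervals in all 10 lists, with the least distance in del(8-13)rXII CTCF (48.1% and 27.2%), where the shares were 56.0% and 55.7% among intervals of 700 bp or more; widths are not matched in the plot.

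Some members were split into separate peaks in other lists. These outcomes were counted for members only, so no share of 1-summit intervals stands beside them. In del(1-13)d9lac, 174 members were 1 peak with several summits and 176 were 2 or more separate peaks, while 369 had 1 summit and 262 no peak. In del(attP-Rel5)d9lac the numbers were 186, 204, 363 and 228, and in wild-type whole limb they were 202, 181, 357 and 241. In del(8-13)d11lac, 399 members were 1 peak with several summits and only 56 were separate peaks, with 392 at 1 summit and 134 without a peak. In del(8-13)rXII the numbers were 247, 162, 235 and 337. Wild-type proximal forelimb had 532 members as 1 peak with several summits, 83 as separate peaks and 366 at 1 summit.

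Counting both forms, 221 members (22.5%) had 2 or more summits in all 6 other CTCF lists, and 240 (24.5%) had them in none. As 1 peak with several summits, 75 members (7.65%) appeared in all 6 lists and 301 (30.7%) in none. Both counts were made for members only, and a wide interval can overlap 2 peaks by its width.

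**Figure D3:**
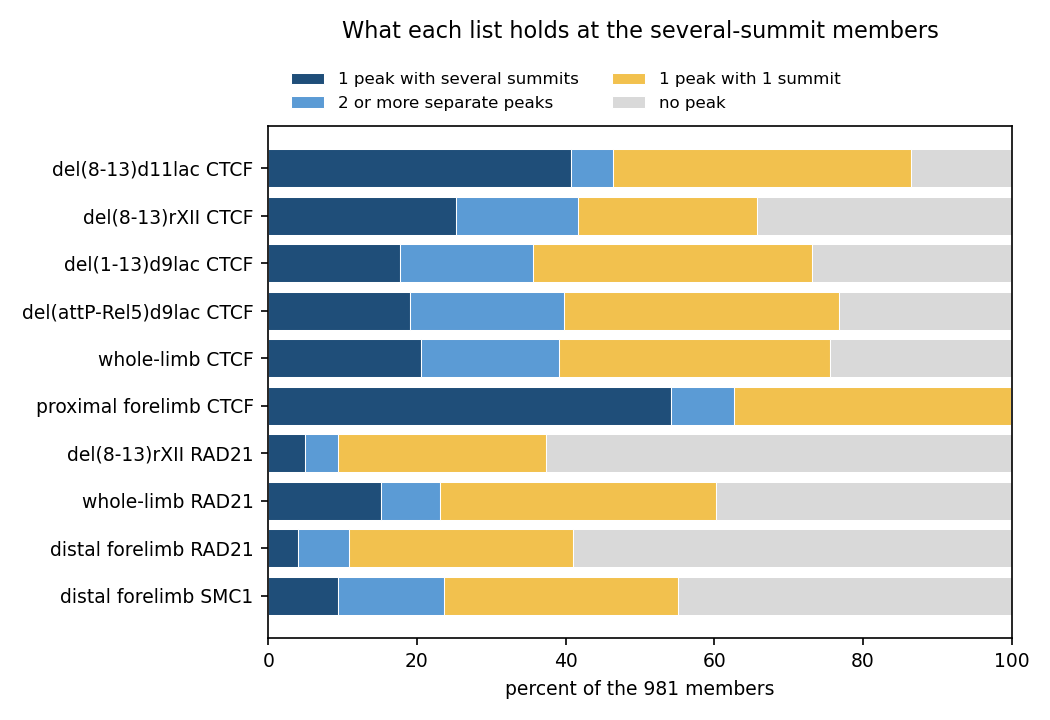
Share of the 981 members that each list holds as 1 peak with several summits, as separate peaks, as 1 peak with 1 summit, or not at all. Proximal forelimb has no member without a peak because the rule asks for one.

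Most distal summits of members were repeated in the lists other than del(8-13)rXII, but both summits of a pair less often. The shares below were computed for members only, with no like share for 1-summit intervals. Of the distal summits of members with a peak in the other list, a summit lay within 50 bp in 66.3% of cases for del(8-13)d11lac, 64.8% for del(1-13)d9lac, 66.1% for del(attP-Rel5)d9lac, 65.9% for wild-type whole limb and 68.7% for wild-type proximal forelimb. In del(8-13)rXII the share was 40.6%, and 62.5% within 100 bp. Both summits of a 2-summit member with a peak were repeated within 50 bp in 43.9% for del(8-13)d11lac, 41.9% for del(1-13)d9lac and 44.2% for del(attP-Rel5)d9lac. The shares were 44.3% for wild-type whole limb, 50.4% for wild-type proximal forelimb and 16.7% for del(8-13)rXII. Where both lists had exactly 2 summits, the spacing differed by a median of 17 to 20 bp, with a Pearson correlation across members of 0.85 to 0.92 in the 5 lists other than del(8-13)rXII. In del(8-13)rXII, 212 such members had a median spacing of 274 bp there, against 386 bp in the distal list, with a median difference of 97 bp and a correlation of 0.40. These correlations describe members that share their genome positions and are no test.

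Where another list had only 1 summit at a 2-summit member, it was nearer the stronger distal summit in 87.6% of cases for del(8-13)d11lac, 88.5% for del(1-13)d9lac, 84.8% for del(8-13)rXII, 90.3% for del(attP-Rel5)d9lac, 89.6% for wild-type whole limb and 81.7% for wild-type proximal forelimb. The summit missing there was thus mostly the weaker one. Several summits were also found more often at strong members: in wild-type whole limb the share was 47.1% in strength group 10, against 12.0% in group 2 and 0 of 25 in group 1.

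Whether members had a peak more often than 1-summit intervals depended on width and on the definition of overlap. With an overlap of 1 bp, a peak was present at 73.3% of members and 66.6% of 1-summit intervals in del(1-13)d9lac, at 76.8% and 70.5% for del(attP-Rel5)d9lac, at 65.6% and 56.6% for del(8-13)rXII, and at 75.4% and 68.6% for wild-type whole limb. In del(8-13)d11lac it was present at 86.3% of members and 89.9% of 1-summit intervals. Weighted to the members' strength, the shares of 1-summit intervals were 68.2% for del(1-13)d9lac, 71.4% for del(attP-Rel5)d9lac, 59.8% for del(8-13)rXII, 89.0% for del(8-13)d11lac and 70.0% for wild-type whole limb, which kept each order. Weighted to the members' width classes, the shares of 1-summit intervals were 93.6% for del(1-13)d9lac, 94.9% for del(attP-Rel5)d9lac, 91.3% for del(8-13)rXII, 97.6% for del(8-13)d11lac and 94.5% for wild-type whole limb, each above that of members. In each width class the 1-summit intervals were the stronger, with a median −log10 q of 151 against 17.7 at 500 to under 700 bp. With at least 50% of the distal interval covered, and with no weighting, the order of the first 4 turned as well: members had 34.8% and 1-summit intervals 64.5% for del(1-13)d9lac, 37.1% and 68.4% for del(attP-Rel5)d9lac, 31.6% and 40.9% for del(8-13)rXII, and 37.5% and 66.4% for wild-type whole limb. A single peak had to cover that share, and peaks of these 4 lists had median widths of 300 to 320 bp. Members, with a median of 743 bp against 394 bp, could thus fail by width, and the setting cannot separate presence from width.

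Cohesin was listed at many members. A RAD21 peak of del(8-13)rXII limbs overlapped 37.4% of members (34.4 to 40.5%) and 26.1% of 1-summit intervals. In wild-type whole limb, RAD21 overlapped 60.2% of members (57.1 to 63.3%) and 41.5% of 1-summit intervals. In wild-type distal forelimb, RAD21 overlapped 41.0% of members (37.9 to 44.1%) and 27.5% of 1-summit intervals, and SMC1 overlapped 55.0% (51.9 to 58.1%) and 37.5%. All 3 wild-type cohesin lists had a peak at 37.7% of members and 24.7% of 1-summit intervals, and none had one at 33.0% and 52.8%.

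The higher share lay mainly among weak members. In strength groups 1 to 5, distal forelimb RAD21 overlapped 20.5% of 448 members and 3.46% of 1-summit intervals, whereas in groups 6 to 10 it overlapped 58.2% of 533 members and 51.6% of 1-summit intervals. In group 10 the shares were 85.1% and 83.0%. The weak members include many with copied sequence: among those whose 31 bp were unique the share in groups 1 to 5 was 15.4% (32 of 208, 11.1 to 20.9%), against 3.42% of such 1-summit intervals, and among those with copied 31 bp it was 25.0%, against 3.62%. Whole-limb RAD21 showed the same order, at 35.1% of the unique weak members and 14.7% of such 1-summit intervals.

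Width moved with this comparison and changed its sign. In the class of 500 to under 700 bp, distal forelimb RAD21 overlapped 16% of 306 members and 60.6% of 1-summit intervals, and among intervals of 700 bp or more it overlapped 58.2% of members and 61.9% of 1-summit intervals. Strength differed within these classes: the median strongest −log10 q was 17.7 in members and 151 in 1-summit intervals of 500 to under 700 bp, and 104 and 156 in those of 700 bp or more. Members are thus wide for their strength, and 1-summit intervals of the same width are stronger. With at least 50% of the interval covered, members were below 1-summit intervals in all 4 cohesin lists, at 8.92% and 18.9% for del(8-13)rXII RAD21, 30.1% and 37.4% for whole-limb RAD21, 9.15% and 19.3% for distal forelimb RAD21, and 15% and 23.3% for SMC1. A difference in cohesin between the sets that is independent of width and of the definition of overlap was not shown.

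**Figure D4:**
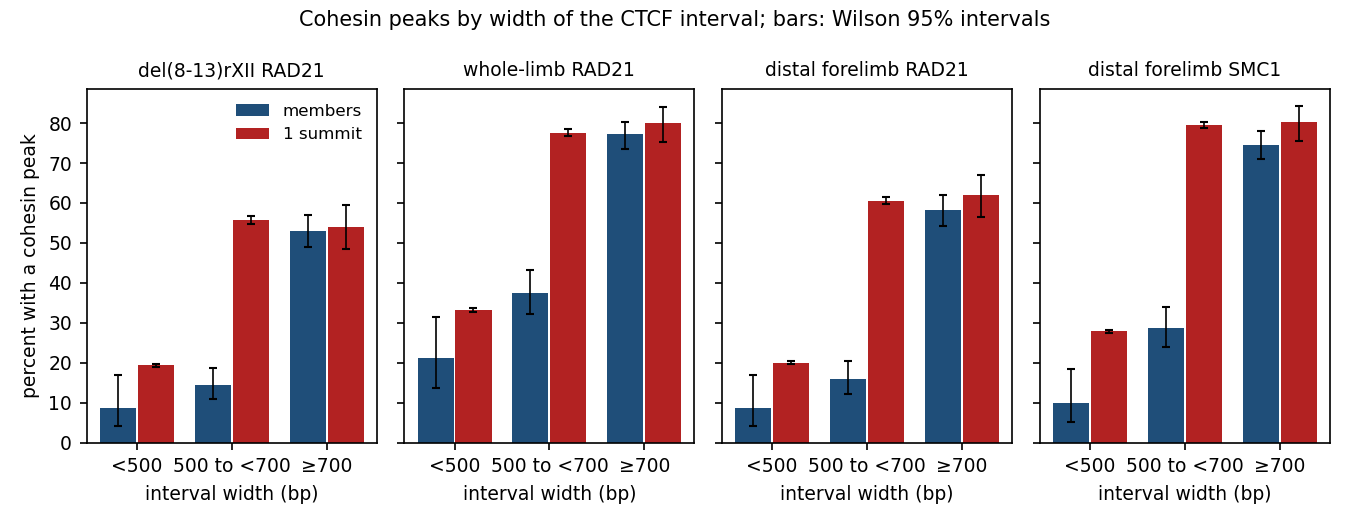
Percent of CTCF intervals with an overlapping cohesin peak, by width of the interval, for members and 1-summit intervals in the 4 cohesin lists; error bars are Wilson 95% intervals. In the class of 500 to under 700 bp members lie well below 1-summit intervals (16% and 60.6% for distal forelimb RAD21), and from 700 bp on the error bars of both sets overlap.

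Several cohesin summits were also found at members. Where a cohesin peak was present, it had several summits at 15.8% of members and 0.366% of 1-summit intervals in del(8-13)rXII RAD21, 26.4% and 1.45% for whole-limb RAD21, 13.4% and 0.387% for distal forelimb RAD21, and 21.7% and 1.95% for SMC1. In the 664 members with unique summits these shares fell to 8.73% for del(8-13)rXII RAD21, 18.1% for whole-limb RAD21 and 8.03% for distal forelimb RAD21. Among intervals of 700 bp or more the contrast was smaller, at 16.1% of members and 10.4% of 1-summit intervals for del(8-13)rXII RAD21, 25.9% and 8.20% for whole-limb RAD21, 13.3% and 9.60% for distal forelimb RAD21, and 24.8% and 17.9% for SMC1. Separate cohesin peaks at 1 member added to these numbers. A member with cohesin had 1 peak with 1 summit in 275 of 367 cases for del(8-13)rXII RAD21, 364 of 591 for whole-limb RAD21, 295 of 402 for distal forelimb RAD21 and 309 of 540 for SMC1, and 2 or more separate peaks in 43, 79, 68 and 139 cases in the same order of lists. Most members with cohesin had 1 cohesin summit for several CTCF summits, by a narrow margin in SMC1.

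That cohesin summit was mostly at the stronger CTCF summit. Among 2-summit members the strongest cohesin summit lay within 50 bp of the stronger CTCF summit in 66.2% of cases for del(8-13)rXII RAD21, 64.2% for whole-limb RAD21, 68.9% for distal forelimb RAD21 and 67.3% for SMC1. It lay within 50 bp of the weaker one in 18.4%, 20.1%, 16.8% and 15.5% in the same order of lists. Both CTCF summits had a cohesin summit within 50 bp in 12.4% of 331 members in del(8-13)rXII RAD21, 22.0% of 542 in whole-limb RAD21, 16.3% of 363 in distal forelimb RAD21 and 23.9% of 498 in SMC1. At 1-summit intervals with a motif, the distal forelimb RAD21 summit lay a median of 19 bp downstream of the motif centre and was downstream in 84.7%, while the SMC1 summit lay 2 bp downstream. In members with a pair of motifs in one direction and 1 cohesin summit, the distal forelimb RAD21 summit was nearer the downstream motif in 40.5% of 79 members.

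Repetition differed with motif content, in one order in the CTCF lists and in another in the RAD21 lists. Members with several motifs had 2 or more summits, in either form, in 68.4% for del(8-13)d11lac and 59.6% for wild-type whole limb, against 20.4% and 17.6% for members without a motif. These shares are of all members of a class, also those with no peak in the list. A peak was present at 416 of 421 and 120 of 221 in del(8-13)d11lac, and at 385 and 98 in wild-type whole limb. The classes also differed in strength, and the part of peak presence and strength was not tested. In the RAD21 lists members without a motif were higher: the shares were 7.84% with several motifs and 19.9% with none for del(8-13)rXII, 21.6% and 40.7% for whole limb, and 10.5% and 22.6% for distal forelimb. In SMC1 they were 30.6% with several motifs, 11.8% with 1 and 28.1% with none. Among the 221 members without a motif, 67.0% had copied 31 bp, against 14% of the 421 with several motifs.

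**Figure D5:**
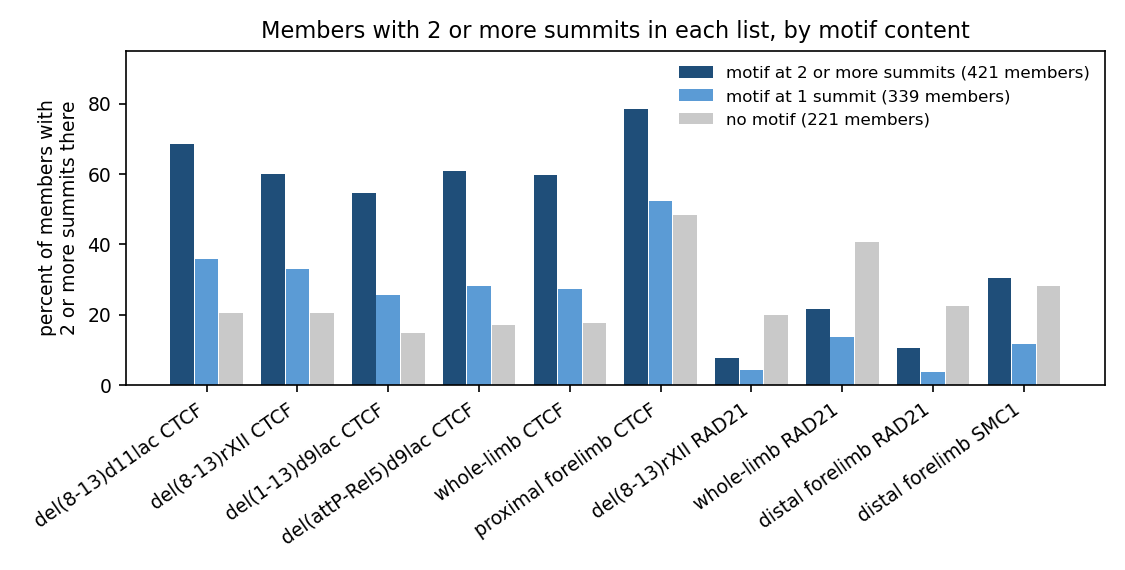
Percent of members with 2 or more summits, as 1 peak or as separate peaks, in each list, by the number of member summits with a motif. All members of a class are counted, with or without a peak in the list. In the CTCF lists the class with several motifs is highest (68.4% for del(8-13)d11lac), in the 3 RAD21 lists the class without a motif is highest (40.7% for whole limb), and in SMC1 the classes with several motifs and with none are close (30.6% and 28.1%).

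Members lay near start sites of protein-coding genes more often than 1-summit intervals, while like shares of both lay between genes. At least 1 summit was within 1 kb of the transcription start site of a protein-coding gene in 19% of members (186 of 981, 16.6 to 21.5%). The share was 7.78% of 1-summit intervals, and 7.85% when these were weighted to the members' strength. Any summit of a member counted, whereas a 1-summit interval offered 1 position. The part of this in the difference was not tested. Introns held 30.3% of members and 41.5% of 1-summit intervals, exons 7.34% and 5.52%, and 43.4% and 45.2% lay between genes. The median distance to a start site was 16153 bp for members and 26432 bp for 1-summit intervals. In the 664 members with unique summits the promoter share was 25.0%, against 8.38% of such 1-summit intervals. Promoter members were rich in G and C, at a median of 61.9% round their summits, against 52.0% over all members, and 41.4% of them had several motifs.

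A member lay within 10 kb of 11 of the 213 matched genes in 14 lists of limb patterning, Hox, tissue marker, imprinted, housekeeping and chromatin genes, which is 5.16%, against 4.66% of all 20807 protein-coding autosomal genes. At 10 kb the share was near that of all genes, and at 50 kb it was higher, with 39 of the 213 listed genes against 2177 of all 20807 (10.5%). Of those 39, 9 are HoxD genes near the single member of that cluster. Limb patterning had 4 of 40 genes, HoxD 2 of 10, and HoxA, HoxB, HoxC, chondrogenesis, muscle, blood and housekeeping genes had none.

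The HoxD cluster held a single member, at chr2:74661505-74662187, between genes and nearest to Evx2, the homeobox gene beside Hoxd13. Its distal summits had −log10 q values of 14.5 and 27.8 and were 358 bp apart, and a motif lay under the stronger one. Of the other CTCF lists, wild-type whole limb had 2 summits there, of 6.27 and 11.9 and 226 bp apart. Del(8-13)d11lac had 1 summit of 38.2, del(1-13)d9lac 1 of 9.72 and wild-type proximal forelimb 1 of 40.3, each within 50 bp of the stronger distal summit. No peak was listed there in del(8-13)rXII or del(attP-Rel5)d9lac CTCF, or in del(8-13)rXII RAD21. Wild-type whole-limb RAD21 had a summit of 89.6 there, and distal RAD21 and SMC1 had summits of 5.80 and 4.95. The weaker distal CTCF summit had no counterpart within 50 bp in any of these lists. Its motif reads as follows, with capitals marking the motif.
Evx2, right summit, chr2:74661986-74662024, minus strand: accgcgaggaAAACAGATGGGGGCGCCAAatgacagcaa

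Among limb patterning genes, the member near Shh, which encodes the signal of the posterior limb margin, lay 2715 bp from the start site, with distal summits of 20.5 and 44.3 placed 292 bp apart and a motif under each. Its motifs face each other. It had 2 summits in del(1-13)d9lac, of 4.47 and 21.4, and in del(attP-Rel5)d9lac, of 6.95 and 10.8, and 1 summit in del(8-13)rXII (2.37), del(8-13)d11lac (63.8), wild-type whole limb (18.7) and wild-type proximal forelimb (40.4). Whole-limb RAD21 had 2 summits there, of 5.17 and 30.7.
Shh, left summit, chr5:28469649-28469687, plus strand: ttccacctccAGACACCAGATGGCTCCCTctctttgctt
Shh, right summit, chr5:28469934-28469972, minus strand: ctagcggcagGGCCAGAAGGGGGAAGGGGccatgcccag

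The other 3 limb patterning members were weaker. The member at Hhip, whose product binds and limits hedgehog ligands, was at the promoter with distal summits of 5.59 and 18.4. It had 2 summits in del(8-13)d11lac and wild-type proximal forelimb, and 1 in del(1-13)d9lac, del(attP-Rel5)d9lac and wild-type whole limb. The member within 10 kb of Gli1, a transcription factor and target of hedgehog signalling, lay in an exon of the neighbouring gene Arhgap9 with summits of 16.9 and 39.6. In Tbx3, a T-box gene of the limb margins, the summits of 3.40 and 13.9 lay in coding exons, and no other CTCF list had more than 1 summit.

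Tissue marker genes gave further single members. Near Sox18, a transcription factor of endothelium, distal summits of 40.1 and 125 lay 310 bp apart, and all 6 other CTCF lists had 2 summits. At Neurog2, a proneural transcription factor, summits of 226 and 1.56 were listed, and all 6 other lists had 1 summit, between 22.6 in del(8-13)rXII and 229 in wild-type proximal forelimb. Near Cdh1, which encodes E-cadherin, the summits of 7.97 and 11.1 were weak and their 31 bp occurred 25 times in the genome. The Peg3 member shown above had near-equal distal summits of 27.4 and 26.8, only 141 bp apart. Del(8-13)d11lac had 2 summits there, 315 bp apart, and wild-type proximal forelimb had 1. Zfp143, a factor that binds promoters and is often found near CTCF, had a member with summits of 60.6 and 10.5.

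The strongest second summits marked pairs of like strength. Near Kctd17, an adaptor of cullin ubiquitin ligases, a member in an intron of Tmprss6 had distal summits of 226 and 237 placed 593 bp apart. Its summits were 2 in 1 peak in del(8-13)d11lac (180 and 216) and in wild-type proximal forelimb (200 and 239), and were separate peaks in del(1-13)d9lac (60.5 and 97.3), del(attP-Rel5)d9lac (89.7 and 137) and wild-type whole limb (66.4 and 120). Del(8-13)rXII listed 5 summits in 1 peak there, of 3.44 to 18.2. The pair was thus present in every CTCF list, and the right-hand summit was the stronger in each. Whole-limb RAD21 had summits of 22.4 and 17.0, while distal forelimb RAD21 had 1, of 7.53, at the left-hand CTCF summit.

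At the promoter of Hook2, an adaptor between microtubule motors and cargo, distal summits of 166 and 197 lay 479 bp apart. All 6 other CTCF lists had 2 summits, as separate peaks in del(1-13)d9lac. Both RAD21 lists of wild-type limbs had 2 separate peaks, of 7.95 and 13.1 in distal forelimb and 29.1 and 38 in whole limb. At the promoter of Pigo, an enzyme of GPI-anchor synthesis, distal summits of 167 and 184 had several-summit peaks in all 6 other CTCF lists, with 5 summits in del(8-13)rXII. No RAD21 list had a peak there, and SMC1 had 2, of 7.82 and 6.31. Promoter members of like strength thus differed in cohesin.

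Near Ntmt1, an N-terminal methyltransferase, distal summits of 171 and 181 lay 340 bp apart, and all 4 cohesin lists had 2 summits in 1 peak. The RAD21 summit at the left was the stronger, at 99.6 and 12.4 in del(8-13)rXII, 185 and 56.2 in wild-type whole limb, and 92.4 and 17.7 in distal forelimb. In CTCF the right-hand summit was slightly the stronger in the distal list. The left-hand motif lies on the minus strand and the right-hand one on the plus strand, so they face away from each other.

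At Nabp2, which encodes a single-stranded DNA binding protein, summits of 171 and 174 lay only 115 bp apart and only the right-hand one had a motif. The other lists placed their summits differently: 3 in del(8-13)rXII, 1 in del(8-13)d11lac (223) and wild-type proximal forelimb (194), and 2 in del(1-13)d9lac (65.1 and 68.8), del(attP-Rel5)d9lac (58.4 and 98.0) and wild-type whole limb (74.2 and 58.8). On chromosome 18, members in an intron of Zfp516 and between genes near Smad2, a mediator of TGF-beta signals, had several-summit peaks in all 6 other CTCF lists.

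Of the 10 members with the strongest second summits, 3 were copies of one sequence on chromosome 4, 2 near Ccl21b and 1 near Ccl27b, which encode chemokines. In a stretch of 1000 bases from each, 992 to 1000 were identical between copies, and the 31 bp at their summits occurred 8 times in the genome. Their motif pairs are therefore the same letters and count as 1 sequence. Their distal summits had −log10 q values of 171 to 215 and were 642 to 654 bp apart, and 2 of the 3 copies were identical over the 1000 bases, so reads within them cannot be told apart.

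The members with most summits were long tracts of another kind. A tract at chr17:39843033-39848780, over an annotated ribosomal RNA gene, had 12 summits of at most 27.3. It had 18 in del(8-13)rXII, 10 in del(1-13)d9lac, 9 in del(8-13)d11lac, 8 in both del(attP-Rel5)d9lac and wild-type whole limb and 11 in wild-type proximal forelimb, and between 9 and 16 in the 4 cohesin lists. A tract at chr14:19415704-19419685 over the predicted gene Gm21738 had 8 summits, no motif, and between 9 and 14 summits in every other list. Of the 13 members with 4 or more summits, 12 had no motif, 11 had copied 31 bp, and 12 had several summits in whole-limb RAD21. Tracts of this kind were thus also listed for cohesin.

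The widest and the narrowest pairs of members with exactly 2 summits are described one by one, and the sets were not compared by a test. Among the 5 widest of these, the pair near Speer4c, at 911 bp, had no motif and copied 31 bp, whereas those near Zfp667, at 763 bp, and Agk, at 757 bp, had a motif at each summit. The Fat4 pair, in coding exons of a large cadherin gene and 744 bp apart, had 1 motif and 2 or more summits in all 6 other CTCF lists. The 5 narrowest pairs were 15 to 84 bp apart with strongest summits of 1.76 to 3.42, and all had copied 31 bp. A motif lay at 1 summit near Rbm8a and near Slc31a2, and at none near Speer4e, Defb7 and Cox7c. Only the pair near Slc31a2 had several summits in another CTCF list.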

How the data were processed

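CTCF, RAD21 and SMC1 peak lists of 11 libraries were used. Per the submitters' processing notes, cutadapt, Bowtie2, MACS2 and build mm10 were used; versions, settings and input controls are not given in the sources used here. Each deposited list gives, per summit, a score (10 times the −log10 q, cut to a whole number, in the deposited files), a ratio (fold enrichment), the −log10 p and −log10 q, and the summit's offset, all computed by the authors. Rows with the same start and end were merged into 1 interval, and chromosomes 1 to 19 were kept. Overlap meant at least 1 bp.

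GRCm38.p6 and GENCODE M21 gave sequence and genes; positions count from 1. Strength was ranked within the distal list only. The CTCF motif was learnt from the 2000 strongest whole-limb peaks that had 1 summit and touched no distal several-summit interval. Its limit was set on control windows 2 kb from summits. The code was tested on simulated intervals and motifs. Python 3.11.15, numpy 2.4.6 and pandas 2.3.3 were used.

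The members, the 14 gene lists, the comparisons and the alternatives were chosen with earlier results of these data known. Members were named by the nearest protein-coding start site, passing over predicted genes: the 10 with the strongest second summits, the 5 with most summits, the 5 widest (1 of them not reported here) and 5 narrowest pairs, up to 4 per gene list, and all at HoxD. The rule for sequences asked for motifs within 200 bp; the other sequences and the Nuf2 member were chosen after their values were seen. Shares carry Wilson 95% intervals. Alternatives were a −log10 q of at least 10 in every list, 50% coverage, a minimum spacing of 150 bp, X and Y, and equal list lengths. Others were summits within 100 bp, cohesin summits inside the interval, and other motif, promoter and gene distances. Members with unique 31 bp were added after seeing the data.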

Additional observations from a re-analysis of the deposited data

How the results depend on the processing

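No paired analysis was possible because each group has 1 library and no test was made. Across 143 recomputed values of 30 results, 61 stayed near the value reported and 82 moved. Near meant within the counting interval for shares and medians. For counts of members and of listed genes, a fixed limit on the ratio of both values was used in its place. The peak lists give no depth, so a missing peak or summit may be one that was not detectable.

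When summits with a −log10 q below 10 were removed from every list, 487 members were left, with a median spacing of 395 bp and several motifs in 64.5%. The peaks of the del(8-13)rXII CTCF list have a median of 7.15, so this setting removed most of that list. Values in the other lists thus describe stronger members and shortened lists together. Several summits were then found in 65.3% of their peaks for del(8-13)d11lac, 35.1% for del(8-13)rXII, 30.1% for del(1-13)d9lac, 34.8% for del(attP-Rel5)d9lac, 36.0% for whole limb and 76.2% for proximal forelimb. A peak was present at 95.9%, 55.6%, 81.9%, 86.7% and 86.2% of members in the first 5 of these lists. Among 1-summit intervals the shares were 93.9%, 28.8%, 60.9%, 69.9% and 64.1%, and the order of the 2 sets turned in del(8-13)d11lac. Summits were repeated in 80.3%, 37.8%, 70.8%, 75.1%, 72.5% and 86.0%, in the order of all 6 lists. Cohesin overlapped 68.0% of members for whole-limb RAD21, with several summits in 18.1%, and 51.3% for SMC1. The shares of 1-summit intervals with cohesin were 41.6% for whole-limb RAD21 and 28.9% for SMC1. There were 7 listed genes with a member.

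With at least 50% of the distal interval covered, 874 members were left, and the shares of members with a peak and with cohesin turned below those of 1-summit intervals as given above. A peak was present at 81.1% of members in del(8-13)d11lac, 31.6% for del(8-13)rXII, 34.8% for del(1-13)d9lac, 37.1% for del(attP-Rel5)d9lac and 37.5% for whole limb. For del(8-13)d11lac the share of 1-summit intervals was 90.1%. Cohesin overlapped 8.92% for del(8-13)rXII RAD21, 30.1% for whole-limb RAD21, 9.15% for distal RAD21 and 15% for SMC1. Several summits were found in 53.6%, 84.4%, 58.2%, 58.6%, 63.1% and, for proximal forelimb, 61.1% of the remaining peaks.

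With CTCF lists cut to an equal length of 35091, 621 members were left. Several summits were found in 57.5% for del(8-13)d11lac, 53.1% for del(8-13)rXII, 30.0% for del(1-13)d9lac, 32.0% for del(attP-Rel5)d9lac, 34.0% for whole limb and 65.9% for proximal forelimb, and peaks were present at 95%, 91.9%, 95%, 94.7% and 95.2% in the first 5.

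In the 664 members with unique 31 bp, an alternative chosen after seeing the data, the median spacing was 368 bp, 54.5% had several motifs and 25.0% were at promoters. Several summits were found in 54.4% for del(8-13)d11lac and 60.1% for proximal forelimb. A peak was present at 96.5% for del(8-13)d11lac (against 94.0% of such 1-summit intervals, which turned the order), 78.5% for del(8-13)rXII, 85.7% for del(1-13)d9lac, 88.6% for del(attP-Rel5)d9lac and 87.2% for whole limb. Such 1-summit intervals had a peak in 61.3% for del(8-13)rXII, 71.2% for del(1-13)d9lac, 74.9% for del(attP-Rel5)d9lac and 73.1% for whole limb. Summits were repeated in 72.5% for del(8-13)d11lac, 70.0% for del(1-13)d9lac, 71.5% in both del(attP-Rel5)d9lac and whole limb, and 78.0% for proximal forelimb. Cohesin overlapped 41.4% for del(8-13)rXII RAD21, 64.9% for whole-limb RAD21, 45.0% for distal RAD21 and 62.8% for SMC1, and several cohesin summits were found in 8.73%, 18.1% and 8.03% in the first 3. Among such 1-summit intervals cohesin overlapped 28.6%, 44.7%, 30.2% and 40.8% in the same order of lists.

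Within 100 bp, summits were repeated in 73.1% for del(8-13)d11lac, 62.5% for del(8-13)rXII, 70.6% for del(1-13)d9lac, 72.0% for del(attP-Rel5)d9lac, 71.6% for whole limb and 76.9% for proximal forelimb. A motif limit passed by 1% of control windows left 25.7% of members with several motifs. A minimum spacing of 150 bp gave several summits in 41.1% for del(8-13)rXII, where it also removed close summits of that list. Start sites within 5 kb gave 29.8% of members, against 18.7% of 1-summit intervals, and 50 kb gave 39 listed genes, against 10.5% of all genes.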
